A study of Saccharomyces cerevisiae with 23 samples.

Results

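The small ribosomal subunit protein genes of budding yeast (Saccharomyces cerevisiae) are the 56 genes from RPS0A to RPS31, which encode the proteins of the cytosolic 40S subunit. They were found in the deposited count table by their systematic gene identifiers, and all 56 were present among the 6596 genes listed. The family makes 32 proteins: 24 are encoded by a pair of duplicated genes, named A and B, and 8 by a single gene, such as RPS20 and RPS31. In the R64 annotation the genes lie on 14 chromosomes, 36 of them carry an intron in the coding region, and their coding lengths run from 171 to 786 bases.

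RNA was sequenced from populations of cells with mixed, abnormal chromosome sets (aneuploid) and from populations with a balanced set (euploid), in search of an expression signature of aneuploidy. Each population was made by 1 of 2 routes. T1 and T2 are the aneuploid populations obtained by tetrad dissection, and A1, A2 and A3 those obtained by a-selection. Each route also has its own euploid population, and all 7 have 3 libraries each. A haploid control, labelled euploid, had 2 libraries. All 23 libraries carry the strain name BY4741, a laboratory strain of mating type a, and none was given a treatment: overnight cultures in YPD, a rich glucose medium, were refreshed for 4 h at 23 °C. The labels give no karyotype, no growth rate and no share of aneuploid cells for any population, so each value is a mean over a mixture, in which fewer cells of a kind and less RNA per cell cannot be told apart.

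The 40S subunit joins the initiator tRNA and the messenger RNA and decodes it, and each of its proteins is needed in an amount matched to the ribosomal RNA. In yeast the ribosomal protein genes are transcribed together at very high rates during fast growth on glucose and are repressed together in starvation and stress. Rap1 binds most of their promoters and recruits Fhl1 and Ifh1, and the TORC1 and protein kinase A pathways pass nutrient signals to them. The 2 copies of a duplicated gene usually encode nearly the same protein from different promoters.

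Libraries held 12719710 to 19327344 counts, 6111 genes passed the low-count filter, and all 56 RPS genes were among them. Every pair of replicate libraries differed by more than sampling noise, and each library was counted. Nothing in the labels says that libraries of 1 group came from separate cultures, so the adjusted p-values below, from edgeR's quasi-likelihood test with Benjamini-Hochberg adjustment over all tested genes, measure only the spread between these libraries. Some markers went against the strain label: MET17, which BY4741 lacks, had 316.6 CPM (counts per 1000000, TMM-scaled) in the haploid control, and 4 alpha-cell genes summed to 7859 CPM in the tetrad euploid population, 1765 in T1, 1550 in T2 and 49.9 to 79.3 in the other groups.

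The RPS genes took a very different share of the RNA in the 8 groups. Together they held 11% ± 0.269 of all counts in the haploid control (SD, n = 2) and 0.503% ± 0.0137 in the tetrad euploid population (n = 3), a 21.9-fold gap. The a-selection euploid population held 1.19% ± 0.0216. The 5 aneuploid populations lay between the haploid control and the euploid population of their own route. Their shares were 2.53% ± 0.0505 in T1, 3.73% ± 0.158 in T2, 2.41% ± 0.0510 in A1, 2.24% ± 0.0201 in A2 and 3.58% ± 0.0865 in A3. Library shares of T2 (3.60% to 3.90%) and A3 (3.53% to 3.68%) overlapped, and those of T1 (2.47% to 2.56%) lay just above those of A1 (2.35% to 2.45%). The 82 genes of the large subunit proteins followed the same order at the ends, with 14.5% in the haploid control and 0.830% in the tetrad euploid population.

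The order of the groups was nearly the same for each gene. All 56 had their highest mean level in the haploid control and their lowest in the tetrad euploid population, and all 56 were higher in A2 than in the a-selection euploid population. T2 was above T1 for 55 genes, and A3 and T2 came next after the haploid control for 51. The order within that last pair was less even, with A3 above T2 for 38 genes. A1 was above A2 for 44 genes and T1 above A1 for 42. These counts were not made over all tested genes, so how far the order is particular to the family was not tested.

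Levels per kb of coding length spread widely within the family. The median gene had 5498 CPM per kb in the haploid control, 170 in the tetrad euploid population, 324 in the a-selection euploid population, and 791, 1174, 686, 639 and 1220 in T1, T2, A1, A2 and A3. RPS31 was the highest and RPS9A the lowest of the 56 in every group. The gap between them on this scale was 51.6-fold in the haploid control, 196-fold in the tetrad euploid population and 29.6-fold in A3. The plot of levels by group shows that the family did not move down as 1 block: RPS31 and RPS20 stayed near the top while the lower end fell further.

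**Figure D1:**
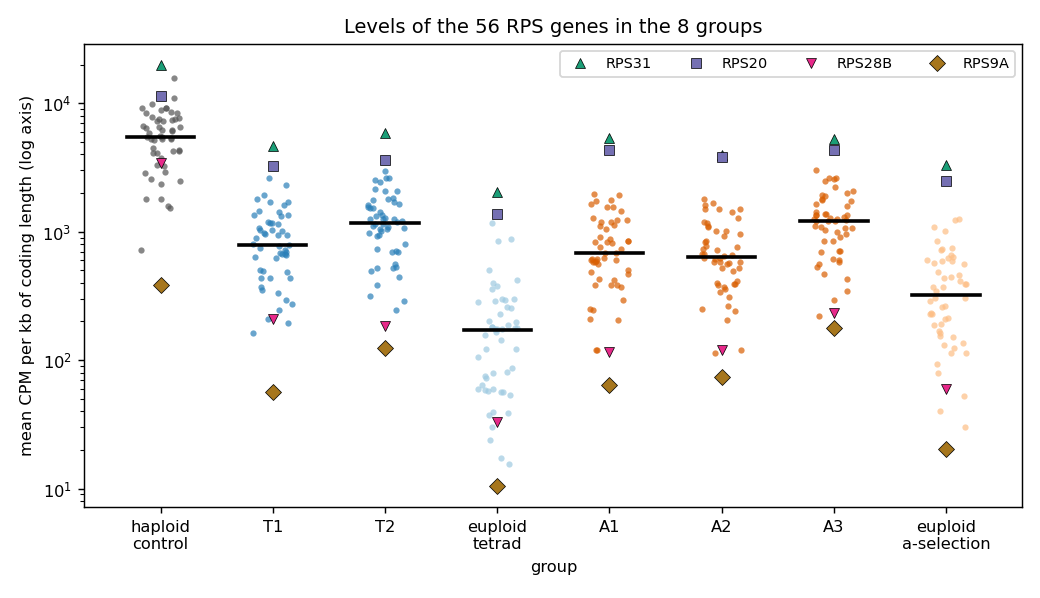
Mean CPM per kb of coding length (log axis) of the 56 RPS genes in the 8 groups; each point is 1 gene, black bars are the family medians and 4 genes have their own symbols. The median falls from 5498 in the haploid control to 170 in the tetrad euploid population, RPS31 is on top and RPS9A at the bottom of each column, and the columns are widest in the 2 euploid populations.

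RPS31 (YLR167W) encodes a fusion of ubiquitin with a 40S protein, from which ubiquitin is cut off. Its libraries had 9173 and 9016 CPM in the haploid control, 962, 893 and 956 in the tetrad euploid population, 2092, 2218 and 2118 in T1, and 2835, 2658 and 2629 in T2. From a-selection, it had 1472, 1547 and 1535 CPM in the euploid population, 2364, 2454 and 2540 in A1, 1859, 1816 and 1802 in A2, and 2368, 2456 and 2408 in A3. No aneuploid library overlapped the euploid libraries of its route, and A1 and A3 overlapped each other. RPS31 made up 6.21% of the family's CPM in the haploid control and 15.9% in the tetrad euploid population.

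Both aneuploid populations from tetrad dissection had all 56 RPS genes above their euploid population. In T1 all 56 rose, where 38.2% of all tested genes were called higher, and the median log2 fold change was 2.46 (5.51-fold), with a range from 1.16 for RPS30A to 3.74 for RPS6B. In T2 all 56 rose as well, against 40.5% of all tested genes, with a median of 2.88 (7.38-fold) and a range from 1.34 for RPS30A to 4.43 for RPS26B. The median over all tested genes was -0.04 in both comparisons. The 2 comparisons share the 3 euploid libraries.

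The a-selection populations rose less. In A1 54 of the 56 were called higher, against 36.6% of all tested genes, with a median log2 fold change of 1.11 (2.15-fold). In A2 54 were called higher, against 36.4%, with a median of 1.02 (2.03-fold), and in A3 54, against 40.2%, with a median of 1.84. None was called lower in the 3 comparisons, whose all-gene medians were between 0.00 and 0.01. The 2 genes not called were RPS8A and RPS8B in each case. The largest fitted changes were those of RPS6B in A1 (1.98 ± 0.105 SE) and A2 (2.00 ± 0.105) and of RPS19A in A3 (3.33 ± 0.0289). These 3 comparisons also share their 3 euploid libraries. The RPL genes had medians of 2.40, 2.88, 1.12, 1.02 and 1.80 in T1, T2, A1, A2 and A3, so the 2 subunits' genes had nearly equal medians in each population.

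**Figure D2:**
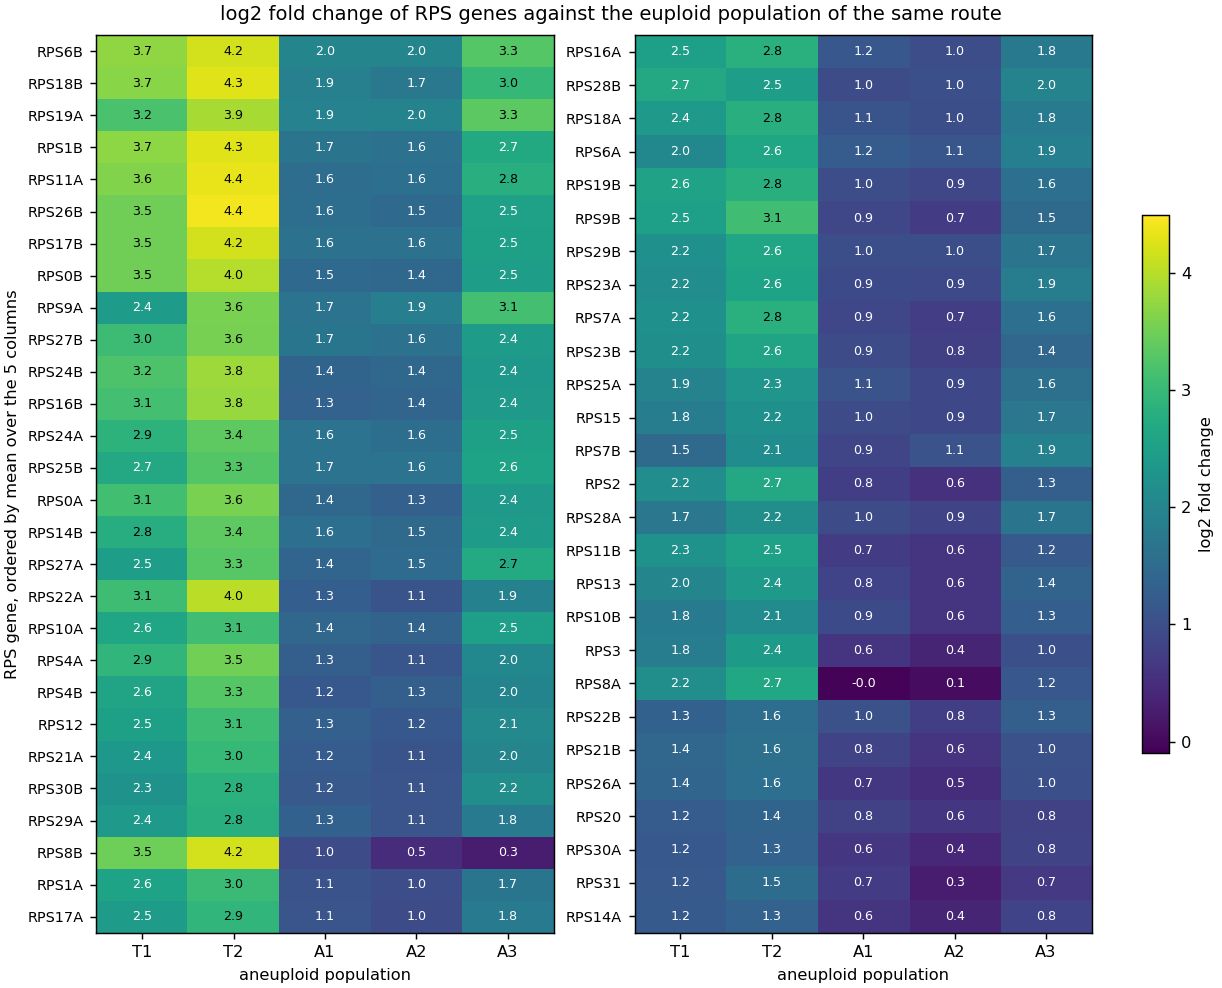
Heat map of the log2 fold change of RPS genes (rows, ordered by their mean over the 5 columns and split over 2 panels) in the aneuploid populations T1, T2, A1, A2 and A3 against the euploid population of the same route. Values run from -0.05 (RPS8A in A1) to 4.43 (RPS26B in T2), the T2 value of each gene is above its A1, A2 and A3 values, and RPS8A and RPS8B break the order of the rows.

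The same rise was set against the spread between populations rather than between libraries. With the libraries of a population summed and the 7 populations as the units, 52 of the 56 RPS genes were higher in aneuploid populations, where 13.9% of 6256 tested genes were called higher. Over all 56, called or not, the median log2 fold change was 1.90, with adjusted p-values from 0.0353 to 0.141 (edgeR, 4 residual degrees of freedom). RPS3, RPS8A, RPS8B and RPS31 were not called. DESeq2 called all 56, but it called 2516 of all genes in either direction where edgeR called 1568. Without T1, T2, A2 or A3 no RPS gene passed, and of all 6226 to 6245 tested genes only 3, 3, 0 and 1 passed. In these fits 54 RPS genes had an unadjusted p under 0.05 each time, beside 2629, 2473, 2450 and 2401 of all tested genes. Without A1, 47 RPS genes and 1300 of all genes passed. The cause was not tested. When the haploid control was entered as another euploid population and the route was no longer a term of the fit, the median turned to -1.08 and no gene was called, with 0 RPS genes and 251 of all genes at an unadjusted p under 0.05. In the authors' deposited table of their comparison over the populations, 12 of the 56 RPS genes had an adjusted p under 0.05 and a positive log2 fold change, against 2.68% of the 6316 genes it lists, and 0 had a negative one. All 56 had an unadjusted p under 0.05 in the authors' deposited table, but the share of all its genes under that value was not counted here. Its adjusted p was within 0.001 of the Benjamini-Hochberg adjustment of its p for only 6 of the genes it lists, and no source used here says how the authors derived it. The 56 log2 fold changes in the authors' deposited table were all above 0, with a median of 1.79. The share of all its genes above 0 was not counted here either.

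Against the haploid control every group was low. In the tetrad euploid population all 56 RPS genes were lower, where 43.6% of all tested genes were called lower, and the median was -5.17 on the log2 scale, with a range from -6.84 for RPS18B to -2.95 for RPS30A. In the a-selection euploid population all 56 were lower against 44.4% of all tested genes, with a median of -3.98 and a range from -5.97 for RPS19A to -2.19 for RPS20. The tetrad aneuploid populations, taken as the mean of T1 and T2, had all 56 lower against 44.3% of all tested genes, with a median of -2.43. The mean of A1, A2 and A3 had all 56 lower against 44.8%, with a median of -2.68. The lowest gene in both of these was RPS28B, at -4.12 ± 0.0394 and -4.53 ± 0.0358. RPS8A was the member nearest the haploid level in the tetrad comparison, and without replicate 1 of the haploid control its value went from -1.62 to -0.79 (adjusted p = 0.244) and the count to 55. The 2 haploid libraries are the reference in all 4 comparisons.

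The 2 euploid populations were not alike either. The a-selection euploid population had 54 of the 56 RPS genes above the tetrad euploid population, where 35.5% of all tested genes were called higher, with a median log2 difference of 1.10. RPS30A (0.07 ± 0.0455, adjusted p = 0.152) and RPS8A (1.2 ± 0.559, adjusted p = 0.0595) were not called, and RPS30A was called under the 4 other scalings, with values from 0.11 to 0.31. RPS8B had the value 4.05 ± 1.07 (adjusted p = 0.00191) and, without replicate 1 of the a-selection euploid population, 1.895 (adjusted p = 0.141). The difference between the routes was tested as the mean change of T1 and T2 minus the mean change of A1, A2 and A3. All 56 genes had a larger rise in the tetrad route, where 33.1% of all tested genes were called in that direction, with a median difference of 1.28 and a range from 0.42 ± 0.0565 for RPS22B to 3.27 ± 1.21 for RPS8B. Without replicate 1 of the a-selection euploid population RPS8B was at 1.11 in this test (adjusted p = 0.425) and 55 genes were called. The test also takes in the difference between the 2 euploid references, whose median was 1.10. Against the haploid control the RPS medians were -5.17 and -3.98 in the tetrad and a-selection euploid populations. The aneuploid means of the 2 routes lay closer together, at -2.43 and -2.68.

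Populations of 1 route differed from each other as well. T2 had 53 RPS genes above T1, where 35.9% of all tested genes were called higher, and 1 below, where 33.2% were called lower, with a median log2 difference of 0.49. A3 had 54 above A2, where 34.2% of all tested genes were called higher, with a median of 0.82 and a largest difference of 1.38 ± 0.0246 for RPS19A. A1 and A2 were close: 31 genes were higher in A1 and 3 lower, where 15.4% and 18.8% of all tested genes were called, and 22 were not called, with a median of 0.11. Scaling by library totals alone moved that split to 23 higher and 6 lower and the median to 0.06.

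A list of 10 stress and post-diauxic genes (HSP12, HSP26, CTT1, SPG4, SIP18, GRE1, DDR2, SSA3, TPS2 and GPH1), which yeast induces as glucose runs out, was mostly lower in the aneuploid populations than in their euploid populations. Their summed level was 672 CPM in the haploid control (665 to 680 over its libraries), 33990 in the tetrad euploid population (33610 to 34740) and 31680 in the a-selection euploid population (31120 to 32230). It was 16960 in T1, 9393 in T2, 19580 in A1, 18420 in A2 and 13550 in A3. All 10 were called lower in T1 and in T2, 7 of them in A1, 8 for A2 and 9 for A3, and 2 were called higher in A1 and in A2. Of all tested genes, 43.0% were called lower in T1, 44.4% in T2, 35.7% in A1, 35.9% in A2 and 39.7% in A3. Growth state was not recorded in the labels, and its part in the RPS levels was not tested.

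Among listed regulators of ribosomal protein genes, called changes went in both directions in T1, T2, A1 and A2. Of 8 listed, 4 rose and 3 fell in T1, 6 and 1 in T2, 4 and 2 in A1, 3 and 2 in A2, and 4 and 0 in A3, and their summed level stayed between 686 and 1114 CPM over all libraries. Of all tested genes, 36.4% to 40.5% were called higher and 35.7% to 44.4% lower in these comparisons. IFH1, the coactivator whose release from Fhl1 goes with repression of these genes, had log2 fold changes of 1.32 ± 0.0631 in T1, 1.76 ± 0.0622 in T2, 0.19 ± 0.0614 in A1, 0.47 ± 0.0601 in A2 and 1.09 ± 0.0578 in A3, all called. CRF1, a corepressor that can take the place of Ifh1, was at -0.95 in T1, -1.12 in T2 and 0.39 in A1, all called, and at 0.11 and 0.13 in A2 and A3, not called. ABF1 was called higher in each, at 0.79, 0.64, 0.23, 0.44 and 0.46 in T1, T2, A1, A2 and A3. RAP1 was at 0.23 in T1, 0.55 in T2 and -0.18 in A1, all called, and at -0.06 and 0.08 in A2 and A3, not called. The repressor list gave 1 rise and 2 falls in each population. TOD6, a repressor of ribosome biogenesis genes, was the member that rose, by 1.36 ± 0.136 in T1, 3.36 ± 0.120 in T2 and 2.67 ± 0.113 in A3, while DOT6 and STB3 fell.

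Of 10 partners of the 40S proteins, 7 rose and 2 fell in T1, A1, A2 and A3, and 9 rose and 1 fell in T2, where 36.4% to 40.5% of all tested genes were called higher and 35.7% to 44.4% lower. The dedicated chaperones of single RPS proteins were among those that rose. TSR2, which carries Rps26, had log2 fold changes of 3.07 ± 0.210, 4.67 ± 0.184, 2.70 ± 0.210, 2.84 ± 0.207 and 4.53 ± 0.177 in T1, T2, A1, A2 and A3. YAR1, which binds Rps3, rose by 1.56, 1.52, 2.20, 2.58 and 2.68, and TSR4, which binds Rps2, by 1.95, 2.94, 1.05, 1.10 and 2.23. RPS3 itself was at 1.83, 2.40, 0.59, 0.38 and 1.03, so its chaperone's log2 fold change was the larger in the 3 a-selection populations and the smaller in the tetrad populations, without a test of that difference.

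Some members departed from the family in the same direction in each population. RPS6B lay above the family median by a mean of 1.18 log2 units over the 5 populations, RPS18B by 1.05, RPS19A by 1.00, RPS1B by 0.93, RPS11A by 0.92, RPS26B by 0.83 and RPS17B by 0.83. RPS14A lay below it by a mean departure of -0.99, RPS31 by -0.99, RPS30A by -0.98, RPS20 by -0.90, RPS26A by -0.83, RPS21B by -0.76 and RPS22B by -0.67. Each of these genes was on its side in 5 of 5 populations. By mean absolute departure RPS17A (0.0359), RPS16A (0.0516) and RPS18A (0.0561) were closest to the median. RPS18A too was below the median in each of the 5, so a constant side alone does not set a gene apart. Because populations of a route share a euploid reference, the 5 values are not independent.

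RPS18B (YML026C) encodes a protein of the head of the 40S subunit that bridges to the large subunit. It had 2843 and 2840 CPM in the haploid control, 23.0, 26.0 and 25.2 in the tetrad euploid population, 317, 327 and 310 in T1 and 476, 487 and 476 in T2. In the a-selection route it had 64.9, 71.8 and 68.2 in the euploid population, 259, 256 and 254 in A1, 222, 227 and 238 in A2 and 518, 547 and 537 in A3. No 2 groups of these libraries overlapped. Its log2 fold change was 3.68 ± 0.0406 in T1, 4.28 ± 0.0406 in T2, 1.91 ± 0.0348 in A1, 1.75 ± 0.0349 in A2 and 2.97 ± 0.0350 in A3.

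RPS19A (YOL121C) encodes a protein of the head that is needed for maturation of the small subunit rRNA. RPS19A had 1419 and 1456 CPM in the haploid control, 13.9, 12.2 and 13.1 in the tetrad euploid population, 121, 119 and 116 in T1 and 198, 194 and 191 in T2. On the a-selection side it had 23.4, 22.9 and 22.7 CPM in the euploid population, 88.4, 88.4 and 89.3 in A1, 90.8, 86.9 and 89.1 in A2 and 233, 231 and 232 in A3. A1 and A2 overlapped, and no other 2 groups did. Its log2 fold change was 3.18 ± 0.0339 in T1, 3.89 ± 0.0331 in T2, 1.95 ± 0.0302 in A1, 1.95 ± 0.0302 in A2 and 3.33 ± 0.0289 in A3. 

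RPS6B (YBR181C) encodes a protein that is phosphorylated when TORC1 is active, and it had the largest mean departure. RPS6B had 1288 and 1252 CPM in the haploid control, 13.6, 10.5 and 9.26 in the tetrad euploid population, 152, 146 and 149 in T1 and 210.1, 201.3 and 200.3 in T2. From a-selection, it had 28.6, 17.1 and 18.4 CPM in the euploid population, 83.2, 82.1 and 89.2 in A1, 83.6, 87.9 and 86.3 in A2 and 219, 207 and 204 in A3. Every aneuploid library was above the euploid libraries of its route, by log2 fold changes of 3.74 ± 0.118 in T1, 4.19 ± 0.116 in T2, 1.98 ± 0.105 in A1, 2.00 ± 0.105 in A2 and 3.29 ± 0.101 in A3. Of the 50-base windows of its coding sequence 72.1% occur in RPS6A as well, so the split of reads between these copies is uncertain.

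RPS1B (YML063W) encodes a protein near the mRNA exit of the subunit. RPS1B had 4105 and 4083 CPM in the haploid control, 44.7, 42.6 and 49.8 in the tetrad euploid population, 596, 612 and 597 in T1 and 917, 869 and 861 in T2. In the a-selection route it had 141, 149.5 and 145 CPM in the euploid population, 455, 453 and 478 in A1, 446, 444 and 451 in A2 and 926, 958 and 942 in A3. Its log2 fold change was 3.72 ± 0.0394 in T1, 4.27 ± 0.0398 in T2, 1.67 ± 0.0344 in A1, 1.62 ± 0.0344 in A2 and 2.70 ± 0.035 in A3, above the family median each time.

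RPS20 and RPS14A are examples from the other end. RPS20 (YHL015W), whose protein sits in the head, had 4156 and 4144 CPM in the haploid control, 525, 490 and 500 in the tetrad euploid population, 1172, 1224 and 1173 in T1 and 1352, 1310 and 1304 in T2. It had 903, 908 and 924 in the a-selection euploid population, 1571, 1589 and 1590 in A1, 1420, 1390 and 1392 in A2 and 1534, 1600 and 1614 in A3. The aneuploid libraries were all above the euploid libraries of their route, and A1 and A3 overlapped. Its log2 fold changes were 1.24 ± 0.0255, 1.39 ± 0.0256, 0.80 ± 0.0250, 0.62 ± 0.0250 and 0.80 ± 0.0250 in T1, T2, A1, A2 and A3.

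RPS14A (YCR031C) encodes the platform protein Rps14, and Rps14 is known to repress its other gene, RPS14B. RPS14A had 3060 and 2981 CPM in the haploid control, 371, 343 and 335 in the tetrad euploid population, 791, 815 and 799 in T1 and 866, 897 and 901 in T2. It had 447, 466 and 445 in the a-selection euploid population, 668, 694 and 685 in A1, 590, 585 and 590 in A2 and 794, 818 and 805 in A3. The groups of each route did not overlap. 

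RPS14B had 303 and 293 CPM in the haploid control, 9.25, 9.11 and 11.5 in the tetrad euploid population, 66.7, 71.7 and 64.7 in T1 and 102, 105 and 98.9 in T2. On the a-selection side it had 16.5, 17.4 and 16.5 CPM in the euploid population, 51.7, 49.8 and 49.3 in A1, 45.8, 49.1 and 46.5 in A2 and 91.0, 92.4 and 91.0 in A3. RPS14B (YJL191W) was thus the lower copy in every group, by a log2 ratio of A to B from 3.12 in T2 to 5.07 in the tetrad euploid population, and rose more than RPS14A in all 5 populations, by 2.77 ± 0.0589 against 1.2 ± 0.0290 in T1.

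The promoters of 5 of these genes are shown because they contrast members that rose more than the family (RPS18B, RPS19A), one near its median (RPS18A) and members that rose less (RPS20, RPS14A). They were picked after their values were seen. Each stretch is 200 bases long, starts 400 bases before the start codon in R64 (RefSeq) and is read on the strand of the gene. Capitals mark the Rap1 word, a form of the site of this factor that was searched on both strands with any base allowed at 2 inner positions. The stretch of RPS14A overlaps the noncoding RNA gene YNCC0012C, and the other 4 overlap no annotated gene.
RPS18B chrXIII:224029-224228, minus strand: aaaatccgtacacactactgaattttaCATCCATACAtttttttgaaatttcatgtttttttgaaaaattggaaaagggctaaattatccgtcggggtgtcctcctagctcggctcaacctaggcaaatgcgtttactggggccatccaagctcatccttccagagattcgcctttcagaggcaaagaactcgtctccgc
RPS19A chrXV:93051-93250, minus strand: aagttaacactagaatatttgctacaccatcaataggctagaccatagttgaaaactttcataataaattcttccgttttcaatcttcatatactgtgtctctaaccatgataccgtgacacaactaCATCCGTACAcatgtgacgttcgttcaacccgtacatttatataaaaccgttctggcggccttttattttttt
RPS18A chrIV:1359523-1359722, plus strand: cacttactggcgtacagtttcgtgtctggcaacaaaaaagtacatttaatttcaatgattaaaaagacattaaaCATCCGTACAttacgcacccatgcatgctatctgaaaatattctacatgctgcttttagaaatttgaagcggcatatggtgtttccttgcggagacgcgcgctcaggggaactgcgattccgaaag
RPS20 chrVIII:75012-75211, plus strand: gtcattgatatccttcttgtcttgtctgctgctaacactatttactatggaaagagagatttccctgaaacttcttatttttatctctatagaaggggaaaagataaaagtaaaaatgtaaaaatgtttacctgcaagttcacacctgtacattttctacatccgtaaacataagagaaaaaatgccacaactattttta
RPS14A chrIII:178421-178620, minus strand: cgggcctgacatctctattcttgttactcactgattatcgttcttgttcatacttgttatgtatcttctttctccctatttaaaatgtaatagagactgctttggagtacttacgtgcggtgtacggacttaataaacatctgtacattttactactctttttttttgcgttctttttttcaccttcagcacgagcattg

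Within 500 bases before the start codon the Rap1 word occurred in 20 of the 56 RPS genes (35.7%) and in 146 of 6000 promoters of protein-coding genes (2.43%). It lay 225 to 482 bases before the start codon, with a median of 333, and 4 genes had 2 or more. The word was settled on after a first scan with a stricter one, and a match is a description of these letters. Median log2 fold changes of the 20 genes with it were 2.55 for T1, 3.08 for T2, 1.27 for A1, 1.15 for A2 and 2.06 for A3, beside 2.36, 2.79, 0.99, 0.95 and 1.70 for the 36 without it. The spans overlapped almost wholly: in T1 genes with the word ran from 1.16 to 3.74 and genes without it from 1.19 to 3.63. A form of the Abf1 site occurred in 7 of the 56 (12.5%, against 9.55% of all promoters) and the Reb1 word TTACCCG in 2, RPS12 and RPS20 (3.57%, against 10.1%).

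The copies of many duplicated genes changed their balance between groups. In 16 of the 24 pairs the same copy rose more in all 5 aneuploid populations. Populations of a route share a euploid reference, so the 5 comparisons are not independent. The 16 include RPS6, whose copies share 72.1% of their 50-base windows. In 5 pairs, among them RPS22, RPS10, RPS1 and RPS4, the mean log2 ratio of the copies changed sign between groups. For RPS1 the only negative mean was -0.01, in the haploid control, where the copies were nearly equal. For RPS4 the sign also changed between libraries of the tetrad euploid population (-0.39 to 0.06) and of T2 (-0.29 to 0.33). The log2 ratio of the A to the B copy moved by 3.41 over the group means for RPS22, 3.35 for RPS26, 2.54 for RPS30 and 2.26 for RPS19. RPS0 moved least, by 0.40. In 22 pairs the largest spread between libraries of 1 group was below the range of the group means, and RPS24 was among the exceptions. Coding sequences of the 24 pairs are 84.3% to 99.2% identical. Copies share reads where they are alike, and 26 of the 56 genes have no 50-base stretch in common with another gene's coding sequence, among them both copies of RPS22 and RPS26.

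RPS22A (YJL190C) and RPS22B (YLR367W), which encode a protein of the body of the 40S subunit, traded places. RPS22A had 3057 and 2968 CPM in the haploid control and RPS22B 612 and 590. In the tetrad euploid population RPS22A had 30.9, 32.1 and 32.8 and RPS22B 72.7, 64.6 and 68.0, so the B copy was the higher in each library. In the a-selection euploid population the A copy was again the higher, at 135 in each library beside 89.5, 97.8 and 83.5 for the B copy.

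The aneuploid populations were in between. RPS22A had 266, 271 and 268 CPM in T1, 526, 527 and 511 in T2, 324, 326 and 336 in A1, 293, 283 and 288 in A2 and 510, 521 and 504 in A3. RPS22B, whose intron is known as a site of RNase III cleavage, had 171, 180 and 165 in T1, 207, 197 and 205 in T2, 182, 185 and 187 in A1, 154, 153 and 151 in A2 and 225, 225 and 213 in A3. The log2 ratio of A to B was 2.32 in the haploid control, -1.08 in the tetrad euploid population, 0.64 in T1 and 1.36 in T2. RPS22B had the smallest route difference of the family, since its log2 fold changes were 1.33 ± 0.0474 and 1.57 ± 0.0474 in T1 and T2, beside 1.03 ± 0.0453 for A1, 0.76 ± 0.0456 for A2 and 1.29 ± 0.0452 for A3.

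RPS26A (YGL189C) and RPS26B (YER131W) encode the protein at the mRNA exit of the subunit. RPS26A had 3329 and 3311 CPM in the haploid control, 331, 289 and 332 in the tetrad euploid population, 833, 872 and 810 in T1 and 970, 932 and 939 in T2. RPS26B had 2214 and 2205 in the haploid control, 20.3, 18 and 22.8 in the tetrad euploid population, 230, 237 and 225 in T1 and 448, 430 and 431 in T2. The A copy was the higher in every library of these groups, but by a log2 ratio of 0.59 in the haploid control and 3.93 in the tetrad euploid population. The ratio was 1.67 in A1, 1.61 in A2 and 1.07 in A3, against 2.57 for the euploid libraries of that route.

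**Figure D3:**
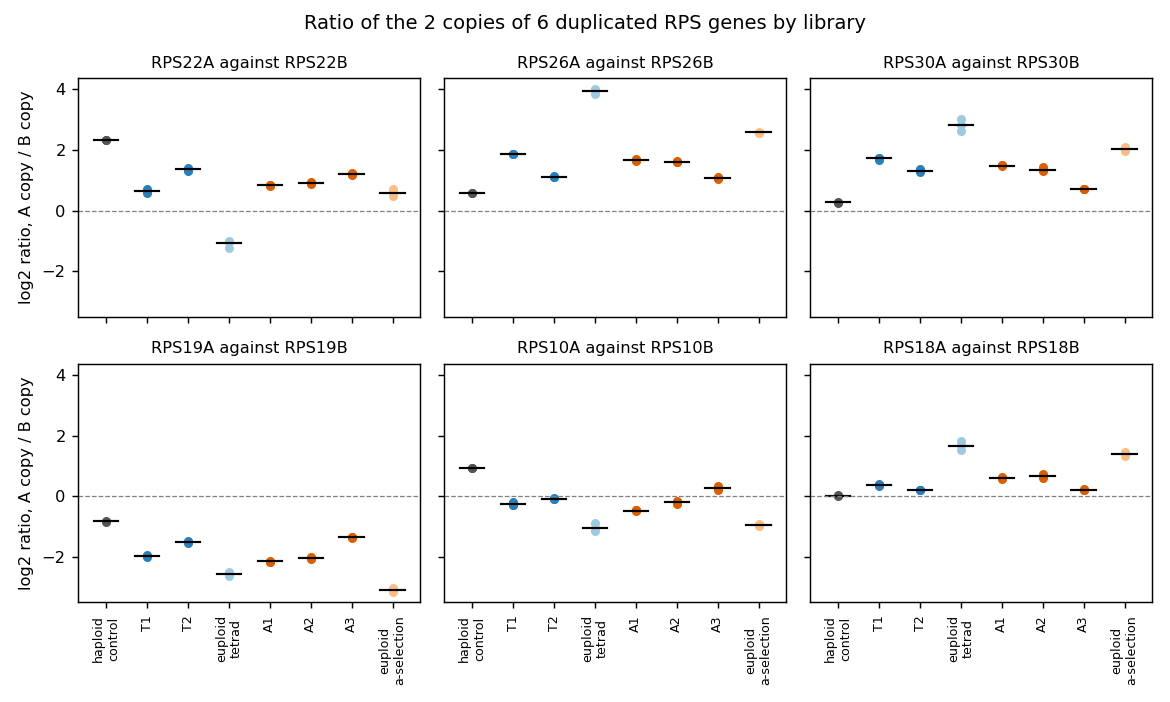
log2 ratio of the A copy to the B copy in each library (points) of 6 duplicated RPS genes, by group, with black bars at group means and a dashed line where both copies are equal. For RPS22 the ratio goes from 2.32 in the haploid control to -1.08 in the tetrad euploid population, for RPS26 from 0.59 to 3.93, and the libraries of a group lie close together in all 6 panels.

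RPS30 and RPS19 had the same kind of shift. RPS30A and RPS30B were nearly level in the haploid control, at 1788 and 1705 CPM for A and 1495 and 1387 for B. In the tetrad euploid population A had 241, 216 and 220 and B had 38.9, 29.9 and 26.8, and in A3 A had 420, 441 and 422 and B had 254, 271 and 261. RPS30A had the lowest log2 fold change of the family in T1 and T2, while RPS30B rose by 2.27 ± 0.0795 and 2.84 ± 0.0787.

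RPS19B, the higher copy in all 8 groups, rose by 2.55 ± 0.0295 in T1 and 0.99 ± 0.0268 in A1, beside 3.18 ± 0.0339 and 1.95 ± 0.0302 for RPS19A.

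Other pairs that were level in the haploid control were unequal in the tetrad euploid population. RPS18A and RPS18B had a log2 ratio of 0.02 in the haploid control and 1.67 in the tetrad euploid population. RPS1A and RPS1B had -0.01 and 1.55, and RPS16A and RPS16B had 0.02 and 1.23. The 8 single genes had lower medians than the 48 copies of duplicated genes, taken copy by copy and not summed per protein. These were 1.92 beside 2.50 in T1, 2.40 beside 3.01 in T2, 0.82 beside 1.17 in A1, 0.61 beside 1.10 in A2 and 1.33 beside 1.92 in A3. The ranges overlapped, at 1.19 to 2.97 and 1.16 to 3.74 in T1, and the difference was not tested. Among the 8 single genes RPS12 was at 2.51 in T1 and RPS31 at 1.19 ± 0.0339.

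RPS2 (YGL123W), whose protein sits at the mRNA entry of the subunit, was among the most abundant members. RPS2 had 7460 and 7525 CPM in the haploid control, 292, 283 and 294 in the tetrad euploid population, 1283, 1305 and 1294 in T1 and 1828, 1872 and 1842 in T2. From a-selection, it had 769, 788 and 781 CPM in the euploid population, 1300, 1325 and 1316 in A1, 1151, 1145 and 1158 in A2 and 1879, 1912 and 1942 in A3. Its log2 fold change was 2.16 ± 0.0199 in T1, 2.67 ± 0.0202 in T2, 0.75 ± 0.0189 in A1, 0.56 ± 0.0189 in A2 and 1.29 ± 0.0191 in A3, below the family median each time, and its aneuploid libraries were all above the euploid libraries of their route.

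A few members went against the family within a route. RPS28B (YLR264W), whose mRNA is known to be cut back by its own protein together with Edc3, had 43.9, 43.4 and 41.7 CPM in T1 and 39.4, 39.9 and 33.4 in T2. It was the only RPS gene called lower in T2 than in T1, at a log2 difference of -0.19 ± 0.0523 (adjusted p = 0.00234, and 0.181 when libraries were scaled by their totals alone, with a value of -0.08). RPS28A had 249, 243 and 233 in T1 and 342, 323 and 326 in T2, with no overlap. RPS28B had 701 and 695 CPM in the haploid control, 6.53, 6.36 and 7.44 in the tetrad euploid population and 12.7, 12.1 and 11.5 in the a-selection euploid population, and the haploid control held a log2 ratio of A to B of 1.41 where the other 7 groups held 2.48 to 3.34.

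RPS9A (YPL081W), which with its copy encodes a protein tied to decoding accuracy, was the lowest of the family per kb of coding length. In CPM without that scaling RPS28B was below RPS9A in T2, A1, A2 and A3, for example at 49.2, 46.2 and 46.7 in A3. RPS9A had 231 and 226 CPM in the haploid control, 6.22, 5.42 and 6.94 in the tetrad euploid population, 32.8, 33.6 and 34.6 in T1 and 74.7, 75.8 and 71.3 in T2. It had 12, 12 and 12.4 in the a-selection euploid population, 37.3, 36.1 and 41.0 in A1, 46.0, 42.1 and 44.5 in A2 and 103, 107 and 106 in A3. No 2 of the 8 groups overlapped. Its rise from T1 to T2, at 1.13 ± 0.0435, was the largest of the family in that comparison.

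A1 was below A2 for RPS9A (-0.21 ± 0.0458, adjusted p = 0.000895), RPS7B (-0.21 ± 0.0243, adjusted p = 6.44e-07) and RPS27A (-0.10 ± 0.0387, adjusted p = 0.0416). RPS9A and RPS7B were called in all 32 alternatives. RPS27A was called in 21 of 32. The call was lost under RLE and upper-quartile scaling and under TMM scaling without ribosomal protein genes. A replicate block, a fit on the compared groups and DESeq2 lost it as well. So did leaving out replicate 1, 2 or 3 of A1 or replicate 1 or 3 of A2, with adjusted p-values up to 0.178.

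RPS8A (YBL072C) and RPS8B (YER102W) had the highest spread between libraries of the family, 1 or the other in each group. The median RPS gene had a coefficient of variation between 1.19% and 6.0% within a group, while the highest of the 56 was RPS8A or RPS8B in each group, from 25.6% to 134%. Outside this pair the highest was 38.0%, for RPS6A in the a-selection euploid population. The gap to the next gene was small in the tetrad euploid population, with RPS8A at 25.6% and RPS24A at 21.7%, and RPS8B varied little between the haploid libraries. RPS8A had 3686 and 1454 CPM in the haploid control, 180, 462 and 442 in the a-selection euploid population, 1567, 1022 and 394 in T2 and 587, 1486 and 345 in A3. RPS8B had 970 and 953 in the haploid control, 440, 40.9 and 36.9 in the a-selection euploid population, 108, 808 and 102 in A1 and 203, 429 and 90.1 in A2.

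In the a-selection euploid population and in A1 a library high in RPS8B stood alone against the other two. The calls rested on it. In A1, A2 and A3 RPS8B had log2 fold changes of 0.96 ± 0.712, 0.48 ± 0.715 and 0.26 ± 0.720, none called, and without replicate 1 of the a-selection euploid population 3.11, 2.64 and 2.42, all called (adjusted p = 0.000924, 0.00356 and 0.00612). RPS8A in A3 was at 1.16 ± 0.531 with an adjusted p of 0.0509, and 11 of 32 alternatives called it.

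The sequences of this pair are shown because they bear on how reads can be assigned. RPS8A and RPS8B have no intron and 603 coding bases each, of which 98.2% are identical. Bases 31 to 140 hold all 11 differences, which are in capitals, and the rest includes an identical run of 465 bases.
RPS8A chrII:88986-89095, minus strand: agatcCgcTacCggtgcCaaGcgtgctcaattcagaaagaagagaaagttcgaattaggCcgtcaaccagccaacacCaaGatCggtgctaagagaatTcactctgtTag
RPS8B chrV:363130-363239, plus strand: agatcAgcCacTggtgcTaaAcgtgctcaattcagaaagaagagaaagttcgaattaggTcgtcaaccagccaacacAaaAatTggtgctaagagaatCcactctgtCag

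The sources used here do not say how the authors' counting treated reads that fit both copies, and its part in the spread of RPS8A and RPS8B was not tested. Other near-identical pairs are RPS6 (72.1% of 50-base windows shared), RPS4 (46.8%) and RPS24 (38.2%), and values of these single copies are uncertain in the same way. RPS4B had 2048 and 2014 CPM in the haploid control, 50.1, 51.0 and 69.8 in the tetrad euploid population, 334, 349 and 339.8 in T1 and 477, 479.9 and 708 in T2. On the a-selection side it had 139, 160.3 and 206 CPM in the euploid population, 342, 424 and 369 in A1, 402, 368 and 463 in A2 and 665, 665 and 663 in A3. The plot of RPS8A and RPS8B beside RPS22A and RPS22B shows the contrast between a pair with long shared stretches and one with none.

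**Figure D4:**
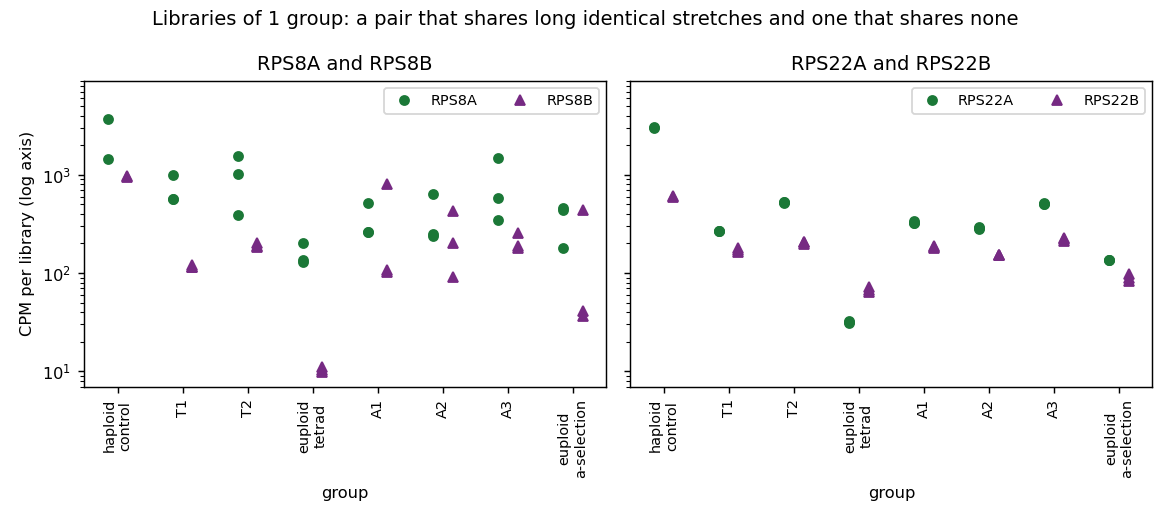
CPM (log axis) in each library of RPS8A and RPS8B (left), which share long identical stretches, and of RPS22A and RPS22B (right), which share no 50-base stretch, by group. Libraries of 1 group scatter from 36.9 to 440 CPM for RPS8B in the a-selection euploid population, whereas those of RPS22A and RPS22B nearly coincide.

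The 3 genes on chromosome VIII (RPS4B, RPS20 and RPS27B) had median log2 fold changes of 2.59, 3.29, 1.17, 1.29 and 1.98 in T1, T2, A1, A2 and A3. Each was the value of RPS4B, a copy with uncertain values, and lay above the family median (2.46, 2.88, 1.11, 1.02 and 1.84). In T2 1 RPS4B library was at 708 CPM beside 477 and 480. RPS27B lay above the family medians and RPS20 below them, at 3.04 ± 0.0284 and 1.24 ± 0.0255 in T1. A part of the chromosome in these values was not tested. The 36 genes with an intron had a median of 2.49 in T1 and the 20 without one 2.29, with ranges of 1.16 to 3.74 and 1.19 to 3.72. The medians with and without an intron were 3.035 and 2.67 in T2, 1.21 and 0.99 in A1, 1.12 and 0.95 in A2, and 1.985 and 1.68 in A3, so the genes with an intron had the higher median in each, with overlapping ranges and no test. RPS27B had 2111 and 2072 CPM in the haploid control, 44.2, 43.4 and 42.9 in the tetrad euploid population, 362, 362 and 354 in T1 and 519, 507 and 512 in T2. From a-selection, it had 119, 123 and 118 CPM in the euploid population, 389, 375 and 399 in A1, 374, 373 and 374 in A2 and 628, 657 and 665 in A3. The libraries of RPS27B, which encodes a zinc-binding protein, had the haploid control on top and the tetrad euploid population at the bottom, and T1 lay below A1 and A2.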

How the data were processed

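The authors deposited raw counts per gene for 23 libraries. The submitters' processing notes name build R64 and, among other tools, HTSeq 0.6.1p1 and HISAT2 2.0.5; the handling of strand and of multi-mapped reads was not stated. A second deposited table, per the file headers, lists for each gene a mean normalized count (signal), the log2 fold change of the authors' comparison, its error and test statistic (score columns), and p-values; these were read as the authors' own.

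The fit used edgeR 4.0.16 in R 4.3.3 with TMM factors on 6111 genes kept by filterByExpr, with 1 coefficient per group over 23 libraries and 15 residual degrees of freedom. Genes were called at a Benjamini-Hochberg adjusted p under 0.05 over all tested genes. Standard errors are those implied by the F statistic. The common biological coefficient of variation was 5.05%. Copy ratios used log2 CPM with 0.5 added. Sequences came from the R64 reference (RefSeq). Alternatives were other scalings, filters, DESeq2 1.42.0, a replicate block, only the groups compared, summed copies, populations as units and leaving out each library. Steps were tested on simulated data.

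The members and lists were chosen with earlier results of these data known. Values by library are given for the 3 highest and 3 lowest members by mean CPM, the 8 that departed most from the family median, members not called in an aneuploid comparison, the 6 pairs whose ratio moved most and members on chromosome VIII. Of other lists up to 4 genes were named by size of change. RPS7B, RPS27A, RPS28A, SCH9 and RAP1 were named after their values were seen. Some items that these rules name are not reported here.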

Additional observations from a re-analysis of the deposited data

Results flagged for a closer look

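The change of the RPS genes differed between groups that share a contrast, by tests of the difference itself in edgeR's quasi-likelihood fit. All 56 genes passed for the tetrad route minus the a-selection route, 54 for T2 against T1, 54 for A3 against A2 and 34 for A1 against A2, where 71.6%, 69.1%, 64.5% and 34.2% of all tested genes passed in either direction. In the route test the lowest difference was that of RPS22B, at 0.42 log2 units. The highest was that of RPS8B, at 3.27, which fell to 1.11 without replicate 1 of the a-selection euploid population. The route test also takes in the difference between the euploid populations of the routes. In T2 against T1 the ends were RPS28B at -0.19 and RPS9A at 1.13. In A3 against A2 the highest called was RPS19A, at 1.38. In A1 against A2 the members called lower were RPS7B at -0.21, RPS9A at -0.21 and RPS27A at -0.10. Comparisons of populations of 1 route share a euploid population, and groups of 2 or 3 libraries are too small for a test of single outlying libraries.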

How the results depend on the processing

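Counts of called RPS genes stayed within 1.5 times under RLE, upper-quartile and total scaling, both filters, DESeq2, a threshold of 0.01 and fits on the compared groups. In A1 against A2 library totals changed the sign of 5 genes and the call of 11 (23 higher and 6 lower, against 31 and 3), and the other 3 scalings the sign of 2 and the call of 2 each. Totals also changed 1 sign in A1 against its euploid population, the RPS28B call in T2 against T1 and the RPS8A call in A3, the last also without ribosomal protein genes in TMM. Between euploids 1 or 2 calls changed under each scaling. Replicate numbers did not pair the libraries (mean correlation of same-numbered libraries 0.00293 over 77 pairs, against -0.00150 over 154 others); with the replicate block 56, 56, 54, 54 and 54 genes were called in T1, T2, A1, A2 and A3, and 32 for A1 against A2 (34 without). Library totals shifted the all-gene median by up to 0.53 and gave family medians of 2.74, 3.27, 1.17, 1.1 and 1.91 in T1, T2, A1, A2 and A3, -4.98, -3.55, -1.91 and -2.17 for tetrad euploid, a-selection euploid, tetrad aneuploid and a-selection aneuploid against haploid, 1.33 between euploids, 0.60 for T2 against T1, 0.06 for A1 against A2, 0.77 for A3 against A2 and 1.52 between routes. Upper-quartile factors gave -5.28, -4.03 and -2.47 for tetrad euploid, a-selection euploid and tetrad aneuploid against haploid and 0.52 for T2 against T1. Summed copies gave 2.23, 2.76, 1.04, 0.92 and 1.72 in T1, T2, A1, A2 and A3 and -5.05 and -3.92 for the euploids against haploid, fewer features being counted. With populations as units the count was 0 without T1, T2, A2 or A3, where 0 to 3 of all genes passed. It was also 0, with a median of -1.08, when the haploid control joined the euploids without a route term, where 0 of all genes passed. The cause was not tested. A pseudocount of 2 gave ratio ranges of 3.25 and 2.18 for RPS26 and RPS19. Family shares per effective library size were 14.7%, 0.588%, 2.44%, 3.33%, 2.29%, 2.05% and 3.40% for haploid, tetrad euploid, T1, T2, A1, A2 and A3.

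Leaving out 1 library at a time moved the RPS22 ratio range between 3.34 and 3.45, RPS26 between 3.31 and 3.40 and RPS30 between 2.45 and 2.64. Called counts then ran from 56 to 56 in T1 and T2, 54 to 55 in A1, A2 and A3 and 31 to 34 for A1 against A2. Single named genes other than RPS8A and RPS8B kept their calls in the 5 aneuploid comparisons under all alternatives run. Depth limits RPS9A and RPS28B most, at 5.42 to 7.44 CPM in the tetrad euploid libraries.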

Other observations

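Nutrient signalling genes upstream of the family changed in both directions. Of 15 genes of the TORC1 and protein kinase A pathways, 5 rose and 9 fell in T1, 3 and 11 in T2, 5 and 6 in A1, 5 and 5 in A2, and 6 and 7 in A3, where 36.4% to 40.5% of all tested genes were called higher and 35.7% to 44.4% lower. TPK3, 1 of the genes for the catalytic subunit of protein kinase A, rose in each, with log2 fold changes of 1.28 ± 0.0841, 1.98 ± 0.0814, 0.95 ± 0.0808, 1.25 ± 0.0791 and 1.91 ± 0.0763 in T1, T2, A1, A2 and A3. RAS1, an activator of adenylate cyclase, rose by 1.37 ± 0.0498 in T2 and 1.08 ± 0.0453 in A3 and by 0.21 to 0.39 in the other 3. SCH9, a kinase under TORC1, fell by 0.77 in T1 and 0.67 in T2.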
